A study of Mus musculus with 8 samples.

Results

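The insulin-like growth factor (IGF) genes measured here are the 2 ligands Igf1 and Igf2, the signalling receptor Igf1r and 6 binding proteins, Igfbp2 to Igfbp7. These 9 genes were taken by name from a table of 50462 mouse gene identifiers, and all 9 were found in it. A statistical result was obtained for 8 of them, because the counts of Igfbp2 were too low for the test to return an adjusted p.

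The table comes from RNA-seq of cartilage caps cut from the medial side of the knee of wild-type male C57BL/6J mice, with 1 mouse per library. Naive mice (n = 4) had no operation and were taken at day 0, aged 11 weeks. In the other mice (n = 4) the ligament that ties the medial meniscus to the tibia was cut in the left knee, and cartilage was taken 42 days later, at 17 weeks of age. This operation, destabilisation of the medial meniscus (DMM), is a widely used model of post-traumatic osteoarthritis. No sham-operated mice were analysed here, so that the effect of surgery and that of 6 weeks of age cannot be told apart. The labels give chondrocyte as the cell type. The comparison asks which genes of the IGF system had another transcript level in cartilage of the destabilised joint.

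IGF-1 and IGF-2 are small secreted hormones that bind the IGF-1 receptor, a tyrosine kinase of the insulin receptor family, which signals through adaptor proteins to PI3K and Akt. In cartilage IGF-1 is known as a growth factor that drives the synthesis of matrix proteoglycan and collagen and helps chondrocytes survive. Secreted binding proteins hold the ligands, and proteases such as PAPP-A and HTRA1 cut the binding proteins and release them.

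The binding proteins are shown first by a stretch of their own coding sequence. Classical IGF binding proteins share a cysteine-rich motif near the amino end that helps form the ligand-binding domain. Igfbp6 and Igfbp7 are the members whose motif differs in this annotation. Both also rose after DMM, and a link between motif and change was not tested. The windows below hold 51 bases (17 codons) of the coding strand, 5′ to 3′, aligned without gaps, with cysteine codons in capitals. They were read from GENCODE vM21 transcripts (GRCm38), and Igfbp1, the remaining classical member, is added for comparison.
Igfbp1: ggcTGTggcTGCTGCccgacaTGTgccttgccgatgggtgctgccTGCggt
Igfbp2: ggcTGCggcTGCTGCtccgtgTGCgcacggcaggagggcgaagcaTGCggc
Igfbp3: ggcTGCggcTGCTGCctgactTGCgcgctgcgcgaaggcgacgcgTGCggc
Igfbp4: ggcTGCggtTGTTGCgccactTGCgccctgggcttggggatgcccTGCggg
Igfbp5: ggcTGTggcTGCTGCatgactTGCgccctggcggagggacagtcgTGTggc
Igfbp6: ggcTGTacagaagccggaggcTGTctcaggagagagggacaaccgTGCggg
Igfbp7: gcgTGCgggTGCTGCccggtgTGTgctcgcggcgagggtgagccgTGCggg
The windows of Igfbp1 to Igfbp5 and of Igfbp7 hold 5 cysteine codons at the same positions. The window of Igfbp6 holds 3 of these 5, and lacks the adjacent pair in the middle of the motif. Igfbp7 keeps every cysteine codon and differs from each of Igfbp1 to Igfbp5 at the first codon of the window, which encodes glycine in those genes. The coding sequences run from 238 codons in Igfbp6 to 313 in Igfbp7. Igfbp7 binds IGFs weakly and is also known as a matrix-associated protein of blood vessels, whereas Igfbp6 is known for a preference for IGF-2.

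The genes lie on 6 chromosomes (GRCm38, GENCODE vM21). Igf1 is at chr10:87858265-87937042 on the forward strand and is overlapped by the antisense gene Igf1os. Igfbp6 is at chr15:102144362-102149511, also on the forward strand, and overlaps no other gene. Igfbp7 is at chr5:77349240-77408041 on the reverse strand and overlaps Polr2b and Gm34648. Igfbp2 and Igfbp5 are neighbours on chromosome 1, on opposite strands and 5457 bases apart. Igfbp3 lies 3539 bases from Igfbp1 on chromosome 11, which also carries Igfbp4. Igf2 and Igf1r are both on chromosome 7. Of the 31-base words in the transcripts of Igf2, 61.9% also occur in transcripts of another gene, mainly the overlapping Gm49394, so its estimated count is uncertain. The same share was 5.8% for Igfbp4 and at most 0.2% for the other 7 members. Words were compared on the transcribed strand only, so words shared with antisense genes such as Igf1os were not counted.

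Each library held between 12479443 and 16548002 estimated counts in all. DESeq2 (Wald test, Benjamini-Hochberg adjusted p) tested 17760 genes, and a gene was called at an adjusted p of 0.05 or less with a change of at least 1.5-fold. On this rule 13.7% of all genes tested were called, 7.75% as higher and 5.92% as lower in DMM, and the 2 groups did not overlap for 22.2% of genes. The defining cartilage genes Col2a1 and Acan were abundant in every library, at 15101 to 97826 and 5203 to 16873 normalised counts. Matn1, another cartilage matrix gene, was at or near 0, with at most 12 normalised counts. Transcripts of neutrophils, red cells and bone were also abundant, with the neutrophil gene S100a9 at 13368 to 49057 and the bone collagen gene Col1a1 at 108513 to 384195.

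Igf1, Igfbp6 and Igfbp7 rose after DMM by 2.31-fold to 2.52-fold. Of the 8 members tested, 3 were called higher and 0 were called lower, against 7.75% and 5.92% of all genes. The median log2 fold change was 0.44 over the 8 members and -0.02 over all genes tested. No overlap between groups was seen for the same 3 members, against 22.2% of all genes tested. Igf2, Igf1r, Igfbp3, Igfbp4 and Igfbp5 were not called, and their values are given below.

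**Figure D1:**
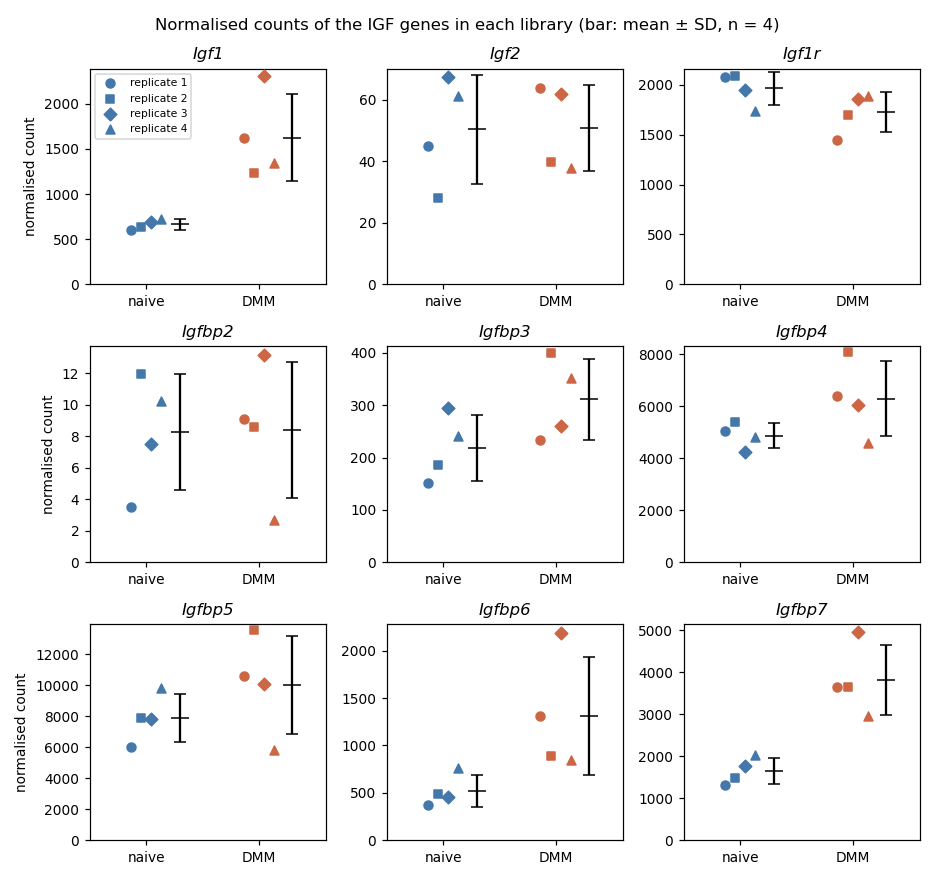
Normalised counts (vertical axes, linear and from 0) of the 9 IGF genes in 4 naive and 4 DMM libraries, with 1 point per library, the symbol giving the replicate number, and the mean ± SD beside the points. Only for Igf1, Igfbp6 and Igfbp7 do all 4 DMM points lie above all 4 naive points.

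The ligand Igf1 had 598, 633, 692 and 728 normalised counts in the naive libraries. In the DMM libraries it had 1620, 1237, 2305 and 1338. The lowest DMM library lay well above the highest naive library, and DMM replicate 3 was the highest of all. The mean rose from 663 ± 58.3 to 1625 ± 481 (SD, n = 4 each), which was a 2.45-fold increase (95% interval 1.90 to 3.17, log2 fold change 1.29 ± 0.19 SE, DESeq2 adjusted p = 1.49e-09). The spread among the DMM libraries was wider than among the naive libraries, which differed by little.

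The other ligand, Igf2, which is the main IGF before birth in the mouse, was at a low level. Its naive libraries had 44.8, 27.9, 67.4 and 61.2 normalised counts. Its DMM libraries had 63.9, 39.8, 61.7 and 37.9. The groups overlapped fully, with means of 50.4 ± 17.7 and 50.8 ± 13.9 (SD, n = 4 each), and the log2 fold change was 0.01 ± 0.32 (SE, DESeq2 adjusted p = 0.987). The 95% interval of the ratio ran from 0.652 to 1.56, which includes changes of 1.5-fold.

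The log2 ratio of Igf1 to Igf2 normalised counts was 3.74, 4.50, 3.36 and 3.57 in naive and 4.67, 4.96, 5.22 and 5.14 in DMM libraries. It moved from 3.79 ± 0.50 to 5.00 ± 0.25 (SD, n = 4 each) and the groups did not overlap. The ratio carries the uncertainty of the Igf2 count.

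Igf1r, the receptor, had 2082, 2094, 1947 and 1742 normalised counts in naive and 1451, 1701, 1862 and 1893 in DMM libraries. The groups overlapped, since naive replicate 4 was lower than 2 of the DMM libraries. The means were 1966 ± 164 and 1727 ± 202 (SD, n = 4 each), and the log2 fold change was -0.19 ± 0.12 (SE, DESeq2 adjusted p = 0.275). Its 95% interval, from 0.747 to 1.03 of the naive level, did not reach 1.5-fold in either direction. The log2 ratio of Igf1 to Igf1r ran without overlap from -1.80 to -1.26 in naive and from -0.50 to 0.31 in DMM libraries.

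Igfbp7 was the binding protein that rose with the smallest adjusted p. Its naive libraries had 1324, 1489, 1761 and 2022 normalised counts. Its DMM libraries had 3645, 3656, 4955 and 2966. Every DMM library was above every naive library, and DMM replicate 3 was again the highest. The mean rose from 1649 ± 307 to 3805 ± 832 (SD, n = 4 each), a 2.31-fold increase (95% interval 1.81 to 2.94, log2 fold change 1.21 ± 0.18 SE, DESeq2 adjusted p = 2.79e-09).

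Igfbp6 rose by a similar amount with a wider error. Its naive libraries had 375, 487, 451 and 762 normalised counts, and its DMM libraries had 1315, 885, 2185 and 849. The groups came close to each other, since naive replicate 4 was near DMM replicates 2 and 4, but did not overlap. The mean rose from 519 ± 169 to 1309 ± 621 (SD, n = 4 each), a 2.52-fold increase (95% interval 1.49 to 4.29, log2 fold change 1.34 ± 0.39 SE, DESeq2 adjusted p = 0.00523). DMM replicate 3 was thus the highest library for Igf1, Igfbp6 and Igfbp7. Without it the log2 fold changes were 1.08, 0.97 and 1.06 (DESeq2 adjusted p = 6.01e-12, 0.000835 and 1.58e-08), and all 3 calls were kept.

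Igfbp4 and Igfbp5 were the most abundant members by normalised count. Igfbp4, which mainly holds IGFs away from the receptor and is the classical substrate of PAPP-A, had 5026, 5371, 4240 and 4830 in naive and 6404, 8099, 6055 and 4593 in DMM libraries. DMM replicates 1 to 3 were above every naive library and DMM replicate 4 was within the naive range. The means were 4867 ± 474 and 6288 ± 1440 (SD, n = 4 each), and the log2 fold change was 0.37 ± 0.16 (SE, DESeq2 adjusted p = 0.0874).

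Igfbp5, which binds to matrix and is abundant in skeletal tissue, had 5997, 7860, 7820 and 9802 normalised counts in naive libraries. In DMM libraries it had 10602, 13522, 10043 and 5820. DMM replicate 4 was the lowest of all 8 libraries for Igfbp5, and the other DMM libraries were the highest. The log2 fold change was 0.35 ± 0.22 (SE, DESeq2 adjusted p = 0.29).

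Without DMM replicate 4 the log2 fold changes of Igfbp4 and Igfbp5 were 0.50 and 0.53 (DESeq2 adjusted p = 0.0039 and 0.0157). Both then passed the adjusted p threshold, and neither reached 1.5-fold. Without DMM replicate 2, the highest library for both genes, the values were 0.22 and 0.17 (adjusted p = 0.311 and 0.673).

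Igfbp3, the main carrier of IGFs in the circulation, had 152, 185, 295 and 240 normalised counts in naive and 233, 400, 261 and 352 in DMM libraries. The groups overlapped, with naive replicate 3 above 2 DMM libraries. The log2 fold change was 0.51 ± 0.24 (SE, DESeq2 adjusted p = 0.105). Without naive replicate 3 it was 0.69 and was called (adjusted p = 0.0261), and with libraries scaled by their total count it was 0.66 (adjusted p = 0.0381), where the median of all genes was also moved up, to 0.14. It was 0.37 both without naive replicate 1 and without DMM replicate 2 (adjusted p = 0.314 and 0.32).

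Igfbp2 had 4 to 9 estimated counts in each naive and 3 to 16 in each DMM library. Igfbp1, a member of the pathway list that is made mainly by liver and decidua, had 0 counts in all 8 libraries.

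**Figure D2:**
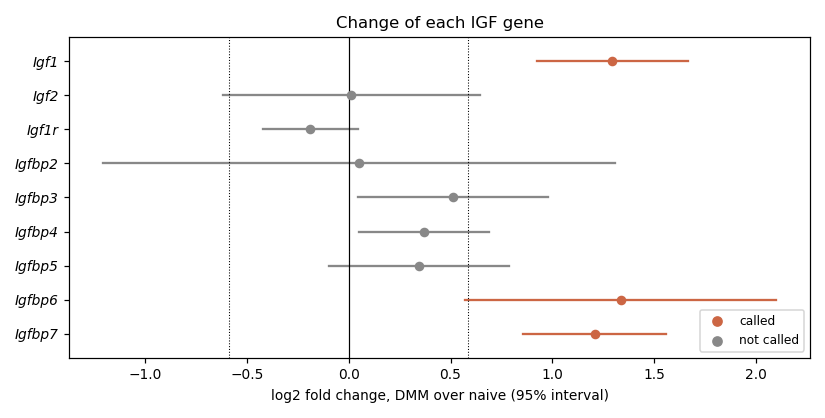
Log2 fold change of each IGF gene, DMM over naive (horizontal axis), with its 95% interval from DESeq2 and dotted lines at 1.5-fold in each direction. Igf1, Igfbp6 and Igfbp7 are called and lie between 1.21 and 1.34, while the interval of Igfbp2 reaches from -1.21 to 1.31.

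To compare levels between genes, normalised counts were divided by the length in kilobases of the longest coding transcript. In naive cartilage the 3 highest members were Igfbp7, Igfbp5 and Igfbp4, at 1374 ± 256, 1310 ± 259 and 1270 ± 124 normalised counts per kilobase (SD, n = 4 each), and their ranges overlapped. Igfbp6 followed at 466 ± 152, then Igf1r at 172 ± 14.4, and none of these ranges overlapped with the next. Igf1 and Igfbp3 came next, at 94.0 ± 8.27 and 90.1 ± 26.0, with overlapping ranges. Igf2 and Igfbp2 were lowest, at 10.7 ± 3.75 and 6.35 ± 2.82.

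In DMM cartilage Igfbp7 stood alone at the top, at 3171 ± 693 normalised counts per kilobase (SD, n = 4), with no overlap with Igfbp5 at 1665 ± 529. The ranges of Igfbp5, Igfbp4 and Igfbp6 overlapped, the last being at 1177 ± 559. Igf1, at 230 ± 68.2, had passed Igf1r, at 151 ± 17.7. The place of Igf1 and Igfbp4 in this order depends on the length used, because the longest and the median coding transcripts measure 7052 and 1367 bases for Igf1 and 3831 and 742 bases for Igfbp4. With the median length Igfbp4 was the highest member in both groups, at 6559 in naive and 8474 in DMM, and Igf1 was above Igf1r in both.

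The shares of the 6 binding proteins in their summed counts per kilobase showed how the pool of transcripts changed. Igfbp7 made up 28.9%, 27.7%, 33.3% and 31.4% of the pool in naive libraries. It made up 39.1%, 36.4%, 43.6% and 44.5% in DMM libraries, which was higher in every one. The mean share went from 30.3% ± 2.49 to 40.9% ± 3.84 (SD, n = 4 each). The size of a share depends on the transcript length used. With the median length Igfbp7 held 14.4% ± 2.43 in naive and 22.5% ± 3.53 in DMM libraries, again without overlap.

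The share of Igfbp5 was 28.8% ± 1.85 in naive and 21.2% ± 4.51 in DMM, and that of Igfbp4 was 28.6% ± 5.14 and 21.3% ± 3.5 (SD, n = 4 each). For both genes the groups overlapped. With the median length Igfbp4 held 66.5% ± 5.58 and 57.4% ± 5.25 and Igfbp5 held 13.2% ± 2.0 and 11.1% ± 1.72 in naive and DMM libraries. The share of Igfbp6 was 10.1% ± 1.79 and 14.8% ± 4.65 with the longest and 4.67% ± 1.21 and 7.96% ± 3.12 with the median length, also with overlap. Igfbp3 held 1.99% ± 0.523 and 1.74% ± 0.692 with the longest length, and Igfbp2 held under 1% in every library. The summed level of the pool was 3816 to 5370 normalised counts per kilobase in naive and 5551 to 9464 in DMM libraries, so that the lower shares of Igfbp4 and Igfbp5 stood beside levels that were not lower on average.

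**Figure D3:**
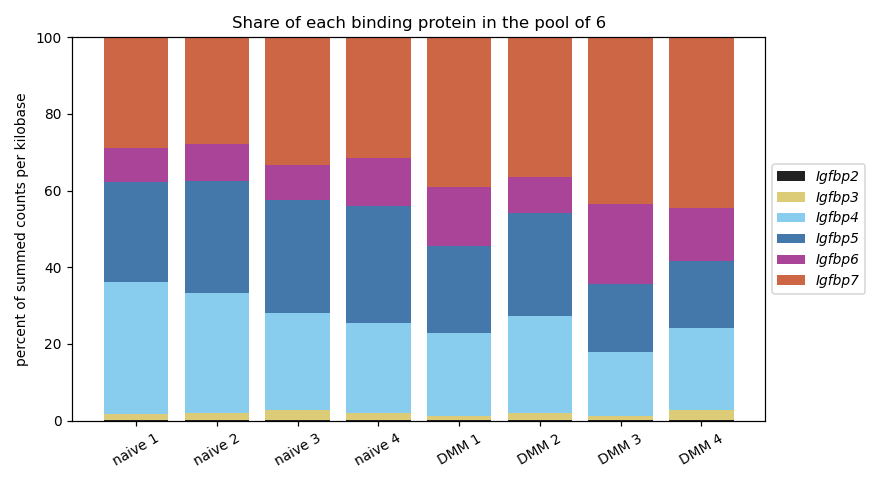
Stacked bars give the percent of the summed binding protein counts per kilobase (vertical axis) held by each of the 6 genes in each library (horizontal axis), with the longest transcript length. The top segment, Igfbp7, takes 27.7% to 33.3% in naive and 36.4% to 44.5% in DMM libraries.

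Across all 8 libraries the normalised counts of the 3 called members varied together, also within groups. On log2 values Pearson's r was 0.97 between Igf1 and Igfbp7, 0.95 between Igf1 and Igfbp6, and 0.94 between Igfbp6 and Igfbp7. With each group's mean removed, these were 0.81, 0.92 and 0.89. Between Igfbp4 and Igfbp5 r was 0.79 and, with group means removed, 0.75. Igfbp5 was not apart from the called members. Its r was 0.58 and 0.64 with Igfbp7, 0.54 and 0.42 with Igfbp6, and 0.42 and 0.19 with Igf1, in the same order. These are descriptions over 8 libraries that share the difference between groups. The 3 called members were picked for that difference, and DMM replicate 3 was the highest library for each.

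Among 10472 genes whose mean normalised count was 100 or more, the genes most like Igf1 across the libraries were Cald1 (r = 0.99), which encodes the actin-binding protein caldesmon, and Adcy2 (r = 0.99), an adenylyl cyclase. Those most like Igfbp6 were Lmna (r = 0.99), which encodes lamins of the nuclear envelope, and Sulf2 (r = 0.99), an enzyme that trims heparan sulphate. Those most like Igfbp7 were Dag1 (r = 0.99), the matrix receptor dystroglycan, and Rtn4rl1 (r = 0.99). Adcy2, Lmna, Sulf2, Dag1 and Rtn4rl1 were called higher, by log2 fold changes of 0.62 to 0.95, and Cald1 passed the adjusted p threshold with a log2 fold change of 0.43.

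For the members that were not called, the most similar genes were Slco4c1 and Dhrs7 for Igf1r (both r = 0.99), Lrrc1 and Colgalt2 for Igfbp3 (0.96 and 0.94), Fcmr and Ago1 for Igfbp4 (both 0.98), and Dcaf4 and Dnajc27 for Igfbp5 (0.98 and 0.95). None of these 8 genes was called. With group means removed, r was 0.926 or more for each gene named as similar. The search picks the highest of many values.

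Since Igf1, Igfbp6 and Igfbp7 moved together, the sequence around their start sites is shown. Each window holds 300 bases, from 250 before to 50 after the start given by RefSeq on GRCm38.p6, on the strand of the gene. Motifs were searched on both strands and are in capitals. The core promoter motif TATAAA occurs in 13.62% of all 32851 windows of this length. The motif GGGCGG, bound by Sp1, occurs in 35.66% of them, and the motif TGANTCA, of the AP-1 type, occurs in 7.81%.
Igf1 promoter, chr10:87860861-87861160, forward strand: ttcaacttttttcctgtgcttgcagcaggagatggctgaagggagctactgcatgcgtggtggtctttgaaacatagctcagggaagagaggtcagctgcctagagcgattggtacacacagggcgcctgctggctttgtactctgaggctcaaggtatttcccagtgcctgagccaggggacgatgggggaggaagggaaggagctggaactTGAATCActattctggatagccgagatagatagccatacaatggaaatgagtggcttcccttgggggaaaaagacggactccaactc
Igfbp6 promoter, chr15:102143936-102144235, forward strand: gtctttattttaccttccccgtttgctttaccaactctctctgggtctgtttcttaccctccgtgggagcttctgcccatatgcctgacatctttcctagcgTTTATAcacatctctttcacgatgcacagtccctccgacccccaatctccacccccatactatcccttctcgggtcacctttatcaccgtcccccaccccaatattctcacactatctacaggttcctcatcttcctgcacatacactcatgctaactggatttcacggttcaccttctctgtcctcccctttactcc
Igfbp7 promoter, chr5:77407996-77408295, reverse strand: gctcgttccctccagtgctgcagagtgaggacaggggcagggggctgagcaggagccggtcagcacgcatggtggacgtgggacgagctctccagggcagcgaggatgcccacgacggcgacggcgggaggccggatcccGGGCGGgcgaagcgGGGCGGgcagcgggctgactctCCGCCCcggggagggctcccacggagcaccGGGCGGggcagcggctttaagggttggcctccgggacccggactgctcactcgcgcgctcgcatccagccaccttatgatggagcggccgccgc
The windows do not all match the GENCODE positions given above. The Igf1 window lies downstream of the gene start at 87858265, and the Igfbp6 window ends before the gene start at 102144362. Other start sites of these genes are not shown. None of the 3 motifs occurs in more than 1 of these windows. The Igf1 window holds 1 TGANTCA and the Igfbp6 window holds 1 TATAAA on the opposite strand. The Igfbp7 window holds 4 GGGCGG, with a GC content of 73.3% and 33 CG pairs, against 52.3% and 6 pairs for Igf1 and 49.7% and 8 pairs for Igfbp6. The medians of all windows were 52.7% and 7 pairs. A match in these letters is a description of sequence and is no evidence of a bound factor.

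Of 51 other genes of the IGF pathway, 47 were tested, and 14 were called higher and 0 lower, against 7.75% and 5.92% of all genes. Their median log2 fold change was 0.16. Like the members, these genes were chosen with earlier results of these data known, so the counts are no independent test of the pathway.

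Among proteases of binding proteins and their inhibitors, 6 of 7 tested genes were called higher, against 7.75% of all genes. Htra1 encodes a serine protease that cuts binding proteins and matrix. The text of the study names it for another injury model, rupture of the anterior cruciate ligament. For DMM it describes the raised genes known to alter osteoarthritis as similar to those of that model, without naming Htra1 again. Here Htra1 had 658, 823, 1015 and 1318 normalised counts in naive and 2278, 2194, 3076 and 2113 in DMM libraries. Every DMM library was above every naive library, with a 2.53-fold increase (log2 fold change 1.34 ± 0.21 SE, DESeq2 adjusted p = 1.03e-08).

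Pappa, which encodes PAPP-A, had 634, 474, 546 and 526 normalised counts in naive and 792, 1014, 663 and 841 in DMM libraries, and the groups did not overlap. Its change was 1.52-fold (log2 fold change 0.60 ± 0.15 SE, DESeq2 adjusted p = 0.00129). Pappa2, its paralogue, was at a lower level and rose 2.11-fold (adjusted p = 0.00152). Stc2, which encodes the PAPP-A inhibitor stanniocalcin-2, rose 1.62-fold from 140 ± 16.2 to 228 ± 55.1 (SD, n = 4 each, DESeq2 adjusted p = 0.00341).

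Adam9 and Adam12, metalloproteases reported to cut binding proteins, rose 1.51-fold and 1.52-fold (DESeq2 adjusted p = 0.000513 and 0.0051). The log2 fold change of Stc1 was 0.56 ± 0.42 (SE, adjusted p = 0.375), and the counts of Adam28 were too low for an adjusted p. Pappa, Adam9 and Adam12 lay just above the 1.5-fold limit. Pappa fell below it without naive replicate 2 or 4 or DMM replicate 2 (log2 fold change 0.49 to 0.58), Adam9 without naive replicate 1 or 3 or DMM replicate 3 (0.48 to 0.57), and Adam12 without naive replicate 1 or 2 or DMM replicate 1 (0.49 to 0.54). Stc2 fell below it without DMM replicate 2 (0.52).

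Among the receptors and carriers other than the members, Igf2r was called. Igf2r encodes the mannose-6-phosphate receptor that clears IGF-2. It had 1490, 1670, 1667 and 1840 normalised counts in naive and 2618, 2253, 3006 and 2514 in DMM libraries, with no overlap, and rose 1.56-fold (log2 fold change 0.64 ± 0.12 SE, DESeq2 adjusted p = 3.88e-06). Without DMM replicate 3 its log2 fold change was 0.56, below the fold limit. The insulin receptor gene Insr had 1141 ± 70.2 and 1185 ± 110 normalised counts in naive and DMM libraries (SD, n = 4 each), and its 95% interval ran from 0.899 to 1.20 of the naive level. Igfals, which encodes the subunit that stabilises the circulating complex, had at most 32.3 normalised counts.

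Among adaptors that bind the receptor or its substrates, 4 of 8 tested genes were called higher, against 7.75% of all genes. Irs1, the docking protein that couples the receptor to PI3K, had 710, 738, 692 and 734 normalised counts in naive and 1379, 1378, 1266 and 1044 in DMM libraries. The naive values were close together and all DMM values lay above them, with a 1.76-fold increase (log2 fold change 0.82 ± 0.12 SE, DESeq2 adjusted p = 8.17e-10).

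Grb10, an imprinted gene whose product inhibits signalling by the insulin and IGF-1 receptors, rose 2.06-fold from 573 ± 79.8 to 1180 ± 140 (SD, n = 4 each, DESeq2 adjusted p = 3.58e-11). Its relative Grb14 rose 1.68-fold (adjusted p = 0.000269), and the docking protein gene Gab1 rose 1.52-fold (adjusted p = 0.000181) and fell below the fold limit without naive replicate 1 or DMM replicate 3 or 4 (log2 fold change 0.55 to 0.56). Irs2, Shc1, Grb2 and Sos1 were not called, with log2 fold changes of 0.16, 0.09, -0.31 and 0.16.

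In the growth hormone axis, which drives Igf1 transcription in liver and other tissues, 3 of 6 tested genes were called higher, against 7.75% of all genes. Socs2, which encodes a feedback inhibitor of growth hormone signalling, had 127, 164, 167 and 201 normalised counts in naive and 405, 352, 353 and 366 in DMM libraries. The groups stood far apart, with a 2.25-fold increase (log2 fold change 1.17 ± 0.16 SE, DESeq2 adjusted p = 6.1e-11).

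Socs3, an inhibitor of cytokine signalling, rose 2.16-fold from 185 ± 42.1 to 398 ± 100 (SD, n = 4 each, DESeq2 adjusted p = 2.56e-05). The growth hormone receptor gene Ghr had 430, 329, 355 and 626 normalised counts in naive and 767, 814, 768 and 490 in DMM libraries. Its groups overlapped, and it was called with a 1.63-fold increase (adjusted p = 0.0103). The call was kept narrowly without naive replicate 2 or 3 or DMM replicate 1 or 2 (DESeq2 adjusted p = 0.0485 to 0.0499). Jak2, Stat5a and Stat5b, which carry the signal of the receptor, were not called, with log2 fold changes of -0.26, -0.24 and -0.11.

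Of 16 genes of the PI3K, Akt and mTOR cascade, 0 were called in either direction, against 13.7% of all genes tested. The list is small, so this count is not far from that share. Pik3cb, Pik3r2 and Foxo1 passed the adjusted p threshold below the fold limit, with log2 fold changes of -0.38, 0.39 and 0.39 (DESeq2 adjusted p = 0.0173, 0.00817 and 0.0313). The median log2 fold change of this list was 0.07. These are transcript levels, and the activity of the kinases was not measured.

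Of 6 genes of the Igf2 locus and of its RNA control, 0 were called, against 13.7% of all genes tested. A list of 6 genes is too small to set 0 apart from that share. H19, the imprinted noncoding RNA that shares its enhancers with Igf2, lies 72622 bases from it on the same strand. It had 143, 176, 165 and 203 normalised counts in naive and 187, 123, 358 and 315 in DMM libraries, where DMM replicates 3 and 4 were high, replicate 1 lay within the naive range and replicate 2 below it. Its log2 fold change was 0.52 ± 0.29 (SE, DESeq2 adjusted p = 0.198), and without DMM replicate 2 it was 0.74 and called (adjusted p = 0.0157). Without DMM replicate 3 or 4 it was 0.28 or 0.38 (adjusted p = 0.533 and 0.429).

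**Figure D4:**
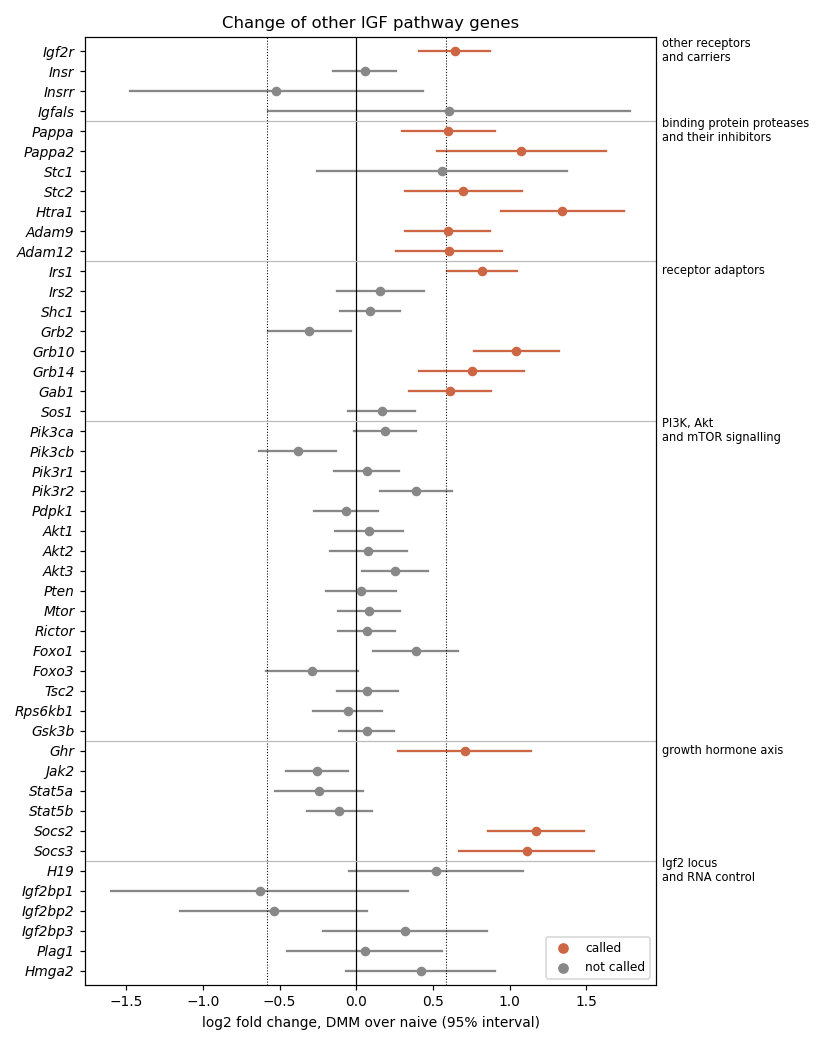
Log2 fold change of 47 tested IGF pathway genes, DMM over naive (horizontal axis), with 95% intervals, grouped by role, with called genes in orange and dotted lines at 1.5-fold. Called genes number 6 among proteases and inhibitors, 4 among adaptors, 3 in the growth hormone axis, 1 among other receptors and carriers, and 0 in the remaining groups.

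The cell type markers that moved with these genes are given beside them. Of all genes tested, 7.75% were called higher and 5.92% lower, which are the shares to set beside the marker counts. In bulk tissue, fewer cells of a type and less RNA per cell cannot be told apart. The summed level of 10 chondrocyte markers was 42516 to 72007 normalised counts in naive and 94448 to 170050 in DMM libraries, and 4 of 9 tested markers were called higher. These were Col2a1, Comp, Acan and Col11a2. The list was not uniform, since Matn3 and Col9a1 were 0.817-fold and 0.780-fold in DMM (DESeq2 adjusted p = 0.87 and 0.83), and Matn1, too low for an adjusted p, was at most 1.66 in DMM libraries, below each naive library. Of 10 osteoblast and osteocyte markers 9 were called higher, with sums of 129840 to 220660 in naive and 345210 to 428060 in DMM libraries. The ratios of the group means were 2.21 for chondrocyte and 2.33 for osteoblast and osteocyte markers, beside 2.31 to 2.52 for the 3 called members. Most of the osteoblast and osteocyte sum was Col1a1, which rose 2.35-fold, with means of 137561 in naive and 323535 in DMM libraries. The median log2 fold change was 1.06 over the osteoblast and osteocyte markers and 0.77 over the chondrocyte markers.

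Of 10 neutrophil lineage markers 10 were called lower, with sums of 127810 to 191860 in naive and 56217 to 115070 in DMM libraries. Of 9 erythroid markers 8 were called lower, with sums of 155760 to 304260 and 80213 to 172230, which overlapped through DMM replicate 3. An exact permutation test over the 70 assignments of libraries to groups gave the smallest p it allows, 0.0286, for the chondrocyte, osteoblast and osteocyte, and neutrophil lineage sums (two-sided), and 0.105 after adjustment over the 11 lists.

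The fibroblast and synovial fibroblast list was also mixed. Its sum was 53233 to 135870 in naive and 87597 to 170580 in DMM libraries, with a two-sided p of 0.114 in the exact permutation test (0.251 adjusted), and it was dominated by Prg4 in naive libraries. Of its 10 markers 5 were called higher, namely Dpt, Thy1, Dcn, Col3a1 and Pdgfra. Of the others, Pi16 was 0.783-fold in DMM with no overlap between groups (DESeq2 adjusted p = 0.00966, below the fold limit). Prg4, Htra4 and Clic5 were 0.689-fold, 0.764-fold and 0.841-fold (adjusted p = 0.407, 0.366 and 0.629), and Cd55 was 1.18-fold (0.189). Dpt had 128, 193, 243 and 550 normalised counts in naive and 1278, 336, 1743 and 550 in DMM libraries, and its groups overlapped.

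Of 10 endothelial markers 4 were called higher and 1 lower, with sums of 6564 to 7578 in naive and 6891 to 7919 in DMM libraries. Those called higher were Cdh5, Emcn, Egfl7 and Robo4, and the median log2 fold change of the list was 0.53. The sum was weighted by its most abundant markers, Vwf and Pecam1. Vwf was called lower, with means of 2533 and 1536, and Pecam1 was not called, with 1621 and 1593 in naive and DMM libraries. Of the B cell list 0 of 10 were called, of the macrophage list 1 of 10 was called lower, of the marrow stromal list 1 of 10 lower, of the osteoclast list 1 of 9 higher, and of the skeletal muscle list 2 of 5 higher, where DMM replicate 1 had a sum of 1466. The part of chondrocytes, bone cells, fibroblasts and endothelial cells in the changes of Igf1, Igfbp6 and Igfbp7 was not tested.

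With a covariate for the mean level of neutrophil and erythroid markers, a fit added after the data were seen that called 172 of 17109 genes, Igf1 and Igfbp7 were still called, with log2 fold changes of 1.59 and 1.22 (DESeq2 adjusted p = 0.00147 and 0.0411). Igfbp6 had a log2 fold change of 1.55 and was no longer called (adjusted p = 0.501). The neutrophil lineage sums did not overlap between groups, so this fit cannot cleanly separate the covariate from the group. Kept and lost calls therefore do not measure the part of these cells. Of the 14 called pathway genes, Pappa2 and Grb10 kept their calls. Of the 12 that lost them, Igf2r, Adam9 and Gab1 had larger log2 fold changes than without the covariate (0.75, 0.71 and 0.79, adjusted p = 0.0694, 0.232 and 0.106). Htra1, Socs3, Socs2, Grb14 and Irs1 were at 1.27, 0.99, 0.91, 0.68 and 0.66 (adjusted p = 0.0878, 0.366, 0.108, 0.488 and 0.117). Stc2, Pappa, Ghr and Adam12 were at 0.33, 0.27, 0.20 and 0.17 (adjusted p of at least 0.894).

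**Figure D5:**
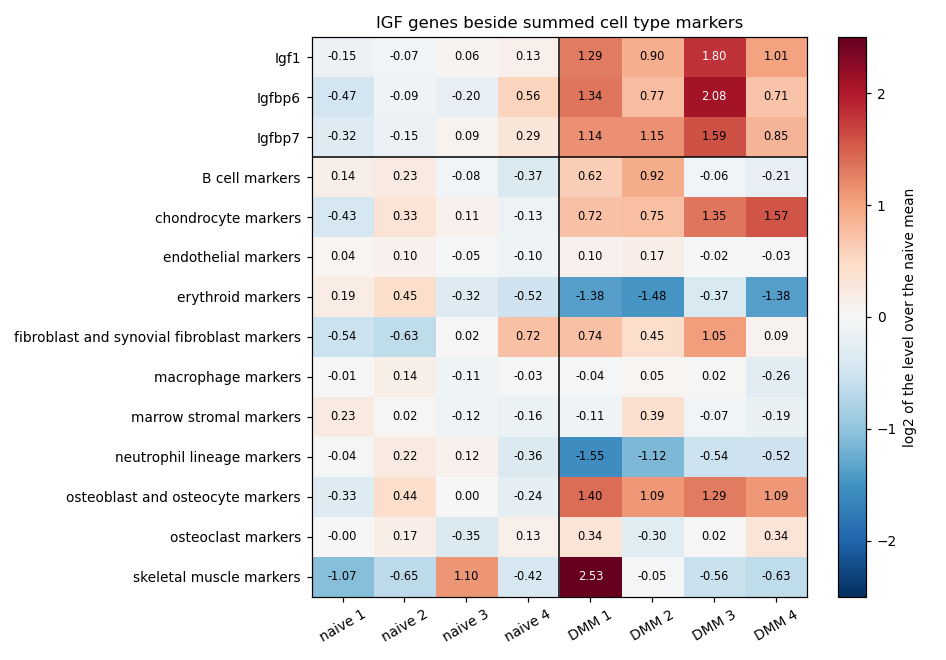
Each cell gives the log2 of a library's level over the naive mean (colour scale and printed value) for Igf1, Igfbp6 and Igfbp7 and for the summed markers of 11 cell types. Chondrocyte and osteoblast markers are higher and neutrophil lineage markers lower in all 4 DMM libraries, and DMM replicate 3 reaches 1.80 for Igf1 and 2.08 for Igfbp6.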

How the data were processed

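RNA-seq libraries of 4 naive and 4 DMM mice were compared. The values deposited by the authors are estimated counts per gene: reads were trimmed with Trimmomatic and pseudo-aligned with Kallisto, and transcript estimates were brought to gene level by Tximport. Of its values 39.2% are not whole, since reads that match several transcripts are divided between them. The study names GRCm38 with an Ensembl release of a later assembly, and the labels name GRCh38, so the build is uncertain. The labels and the study's methods also name different library kits. Whether counting used strand was not stated, so overlapping antisense genes cannot be told apart.

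Estimated counts were rounded and tested with DESeq2 version 1.42.0 under R version 4.3.3, using the Wald test, size factors by median of ratios and no covariate. Normalised counts are counts divided by these size factors, and log2 fold changes are not shrunken. A gene was called where the adjusted p was at most 0.05 and the change at least 1.5-fold. Size factors ranged from 0.752 to 1.21. Alternatives were edgeR version 4.0.16 (quasi-likelihood), limma version 3.58.1 (voom), TMM factors, total count scaling, no independent filtering, a minimum of 10 counts in 4 libraries, no fold threshold, a 1.5-fold null, the replicate number as a block and leaving out each library. The covariate fit and the median transcript length were added after the data were seen. The fits were tested on simulated data.

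The members, the lists of pathway and marker genes and the tests were chosen with earlier results of these data known. Named pathway genes are Igf2r, Insr, Igfbp1, Igfals, Pappa, Stc2, Htra1, Irs1, Ghr, H19 and each called gene, and others are named as uncalled members of a list or beside marker results, some after their values were seen. Genes similar to a member are the 2 with the highest Pearson's r on log2(normalised count + 1) among genes with a mean of 100 or more. Marker sums were compared with an exact permutation test. Positions, lengths and shared words are from GENCODE vM21. Protein sequences were not used here.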

Additional observations from a re-analysis of the deposited data

Results flagged for a closer look

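In 88 groups of 4 libraries (the members, the named pathway genes, the shares and the marker sums), 5 held a value far from the others by Dixon's test, and chance gives about 1 in 20, or 4.4. For Ghr, DMM replicate 4 had 490 normalised counts against 767 to 814 in the other DMM libraries. For Adam9, DMM replicate 3 had 1123 against 816 to 859. The erythroid marker sum was 172230 in DMM replicate 3 against 80213 to 85946. The skeletal muscle marker sum was 543 in naive replicate 3 against 121 to 189, and 1466 in DMM replicate 1 against 164 to 245. None of the 9 members and none of the binding protein shares was marked in this way.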

How the results depend on the processing

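The count of called members was 3 in the main comparison, 1 (Igf1) against a 1.5-fold null, 2 with the neutrophil and erythroid covariate, 4 with total count scaling, which added Igfbp3, and 3 to 4 when each library was left out. It was 3 with edgeR, with voom, with TMM, under both changes of filter and with the replicate block. With edgeR the adjusted p was 0.00354 for Igf1, 0.0175 for Igfbp6 and 0.00394 for Igfbp7. With voom these values were 0.00404, 0.0187 and 0.00411, and with both methods they were larger than with DESeq2. Pathway genes called numbered 14, 2 against a 1.5-fold null, 2 with the covariate, 17 without a fold threshold, 14 with the replicate block and 11 to 14 when each library was left out. The same-numbered libraries correlated in their deviations at 0.05, 0.06, -0.12 and 0.12, so the numbers were not taken to pair the samples. Genes that were not called changed sign in some fits. Igf2 had log2 fold changes of -0.17 to -0.04 without naive replicate 1 or 2 or DMM replicate 1 or 3, and -0.37 with the covariate. Igfbp2 was at -0.00137 with the replicate block, and at -0.22 without naive replicate 1 and -0.26 without DMM replicate 3, and at most 0.35 when 1 library was left out. Insr was at -0.00227 without DMM replicate 1. With the covariate Igf1r was at 0.18, Igfbp5 at -0.16, Insr at -0.18 and Igfals at -1.27. The difference in Igfbp5 share between groups, -7.65 percentage points, was -2.15 with the median transcript length, which also moved the shares themselves, as given with them. With total count scaling the macrophage marker sum was 0.10 on the log2 scale, DMM over naive, in place of -0.05, and the endothelial sum was 0.21 and passed the unadjusted exact permutation test (p = 0.0286). The causes were not tested, except that the 1.5-fold null is by construction a stricter test. Counts of Igf2 and Igfbp2 limit what can be said of them.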
